A study of Homo sapiens with 6 samples.

Results

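Chemokine ligands are the small secreted proteins that steer leukocytes towards a source, and their genes were followed here in MOLM-13 leukaemia cells after exposure to DB2115. They were taken as the protein-coding genes of the deposited count table whose current symbol starts with CCL or CXCL and a digit, plus CX3CL1, XCL1 and XCL2. This gave 44 of the 58381 genes in the table. A further 2 symbols matched the same letters but belong to a pseudogene, CXCL1P1, and an antisense transcript, CCL3-AS1, and were left out. PF4, PF4V1 and PPBP, which encode platelet chemokines under other symbols, were counted apart and had 0 counts in all 4 libraries.

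Chemokines are grouped by the spacing of conserved cysteines near their N-terminus into CC, CXC, C and CX3C families, and they act through G protein-coupled receptors on the migrating cell. Inflammatory members such as CXCL8 and CCL2 are switched on by NF-kB and AP-1 after bacterial products or cytokines, whereas CXCL9, CXCL10 and CXCL11 are known as interferon-induced genes. Cells of the monocyte and macrophage line are a major source of many of them, and their messenger RNAs often carry AU-rich elements that shorten their life.

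RNA sequencing compared 20 h of exposure to DB2115 at 5 µM with 20 h of exposure to the vehicle, DMSO at 0.001%. All cells were MOLM-13, an established cell line derived from human acute myeloid leukaemia, grown in RPMI with 10% serum and 1% penicillin and streptomycin. The labels give DB2115 by this code name alone, and the series title names PU.1, the myeloid transcription factor encoded by SPI1. Each group had 3 libraries in the labels, but the third column of each group in the table was close to the sum of the others, so 2 libraries per group, named A and B, were compared.

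Total counts were 40067286 and 39647758 in the DB2115 libraries, against 36547900 and 42446253 in the vehicle libraries, so that 3 counts in a library corresponded to 0.0725 to 0.0854 CPM, the counts scaled to library size. Mitochondrially encoded genes took 7.65% and 6.93% of counts in DB2115, against 4.91% and 5.64% in vehicle. SPI1 was at 191 ± 27.1 CPM in DB2115 and 182 ± 7.20 CPM in vehicle (SD, n = 2 libraries each), and the 8 myeloid markers checked summed to 1205 to 1320 CPM in DB2115 and 1465 to 1520 CPM in vehicle. Of these 8 markers 4 rose and 3 fell, so the sums join large moves in both directions. MPO, or myeloperoxidase, was at 290 ± 11.9 CPM in DB2115 and 52.6 ± 2.08 CPM in vehicle, PTPRC, or CD45, at 33.8 ± 2.06 CPM in DB2115 and 204 ± 0.995 CPM in vehicle, and FLT3 at 139 ± 1.62 CPM in DB2115 and 431 ± 12.8 CPM in vehicle. Marker lists of other lineages moved as well. Of 8 T and NK cell markers 4 passed the count filter and all 4 rose, with CD2 at 0. The 8 markers summed to 102 to 109 CPM in DB2115 and 21.8 to 24.1 CPM in vehicle. Most of this was NKG7, at 81.3 CPM in DB2115 and 18.7 CPM in vehicle, and TRAC, at 20.7 and 4.23 CPM. Of 6 stromal and endothelial markers 5 passed and 3 rose, with sums of 207 to 220 CPM in DB2115 and 76.3 to 87.2 CPM in vehicle. Most of this was PECAM1, at 168 CPM in DB2115 and 72.6 CPM in vehicle. Of 5 epithelial markers 2 passed and 1 rose, with KRT5 at 0. The 5 markers summed to 64.6 to 66.9 CPM in DB2115 and 2.45 to 3.73 CPM in vehicle. Nearly all of the DB2115 sum was KRT8, at 64.7 CPM in DB2115 and 2.25 CPM in vehicle. EPCAM had 2 and 2 counts in DB2115 and 6 and 8 counts in vehicle. Of 6 megakaryocyte and platelet markers 4 passed and 3 rose, with sums of 23.0 to 26.7 CPM in DB2115 and 4.98 to 5.42 CPM in vehicle and with PF4 and PPBP at 0. Of 6 B cell markers 3 rose and 1 fell, with sums of 27.2 to 29.7 CPM in DB2115 and 50.3 to 52.2 CPM in vehicle. The 5 erythroid markers summed to at most 0.0966 CPM in any library, with AHSP at 0. Among all genes tested 32.7% were called higher and 31.3% lower. CD3E, GNLY, CDH5 and ITGA2B had at most 3 counts each over the vehicle libraries. They passed the filter through their DB2115 counts, so the numbers of markers that rose describe the genes that passed. The part of these lineage genes in the chemokine values was not tested, and scaling computed without mitochondrially encoded genes kept the calls of all 13 tested chemokine genes described below.

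The mix of chemokine counts in MOLM-13 cells differed between DB2115 and vehicle. Their summed CPM, which is not scaled to gene length, stayed close. Of the 44 genes 13 had enough counts to be tested, and 10 of them were higher and 3 lower in DB2115 at an edgeR quasi-likelihood Benjamini-Hochberg adjusted p under 0.05. The 10 that rose were CCL24, CCL25, CCL22, CCL2, CCL3L3, CXCL14, CXCL16, CXCL8, CXCL2 and CXCL11, and the 3 that fell were CCL5, CCL28 and CXCL10. Among all 17219 genes tested 64.1% passed this threshold, 32.7% as higher and 31.3% as lower. The median log2 fold change was 1.80 over the 13 chemokine genes, also with genes lacking counts in a group set at their bound, and 0.03 over all genes tested. Since 5 of the 10 risers had at most 3 counts in the vehicle libraries together, they passed the count filter through their DB2115 counts. CXCL14, with 2 and 6 vehicle counts, and CXCL2, with 5 and 16, also needed their DB2115 counts to pass. CXCL10, without DB2115 counts, passed through its vehicle counts. The median is therefore a description of the genes that passed. Libraries of the groups did not overlap in CPM for any of the 13, as for 81.3% of all genes tested. In bulk RNA, more cells expressing a gene and more of its RNA per cell cannot be told apart. The p-values weigh the difference between the groups against the spread of libraries within a group. The labels do not say that libraries came from separate cultures, so that spread could be purely technical.

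**Figure D1:**
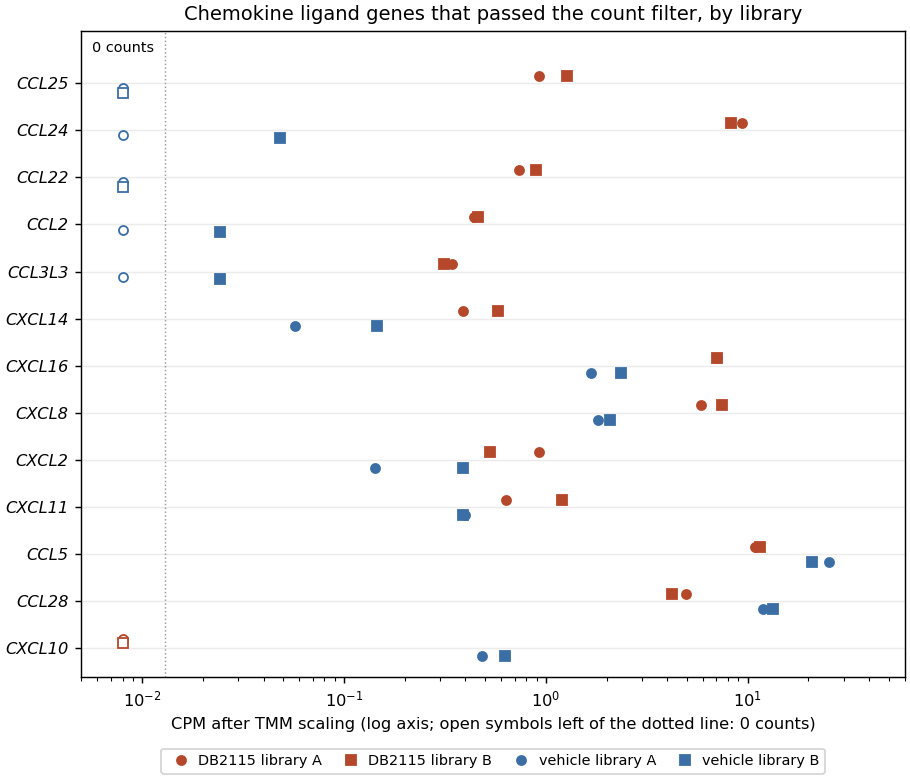
Level of the 13 tested chemokine genes in each library, in CPM after TMM scaling on a log axis, with DB2115 in red and vehicle in blue, circles for library A and squares for library B. Open symbols left of the dotted line mark 0 counts. From CCL25 down to CXCL11 both red symbols lie right of both blue ones, and for CCL5, CCL28 and CXCL10 they lie left.

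The plot of levels by library shows a set of genes that appear almost solely in DB2115 (CCL25, CCL24, CCL22, CCL2 and CCL3L3), a set raised over a measurable vehicle level (CXCL8, CXCL16, CXCL14, CXCL2 and CXCL11), and the 3 genes that fell. Summed over all 44 genes, chemokine counts amounted to 43.9 ± 1.24 CPM in DB2115 and 41.6 ± 1.30 CPM in vehicle (SD, n = 2 each). This sum and the shares below are not scaled to gene length and weigh long genes more. CCL24 has 617 exon bases and CCL28 has 4524, so a close sum does not show a close number of transcripts. The makeup of that sum differed more than its size. CCL5 and CCL28 together took 36.0 ± 1.15% of the chemokine counts in DB2115 and 85.9 ± 2.75% in vehicle. CCL24, CXCL8 and CXCL16 together took 51.4 ± 0.655% in DB2115 and 9.63 ± 1.97% in vehicle. CCL24 alone made up 20.1 ± 2.29% in DB2115 and 0.0596 ± 0.0843% in vehicle.

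**Figure D2:**
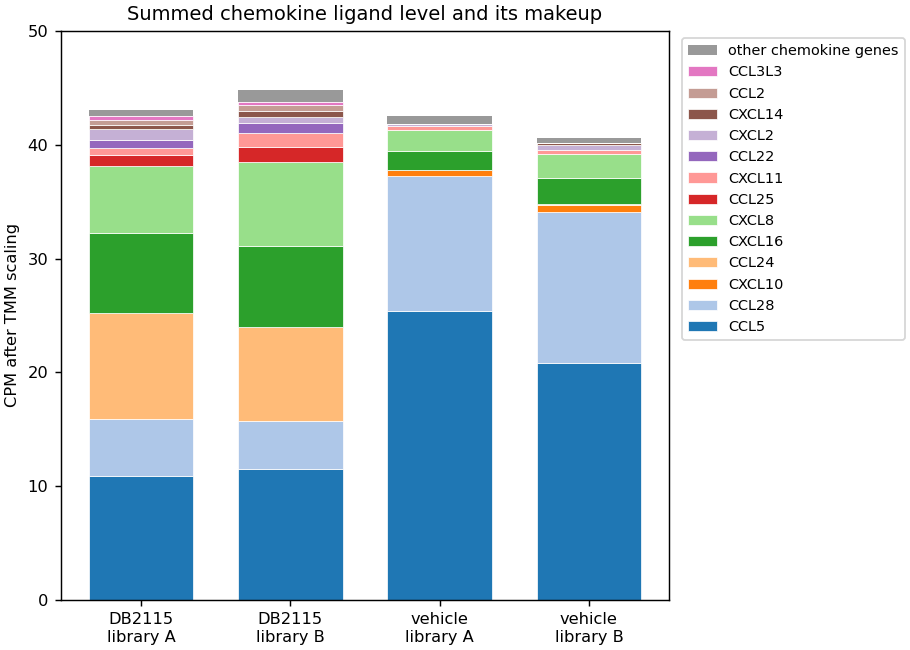
Summed CPM of the 44 chemokine genes in each library, stacked by gene. The bars end at similar heights, while the lower blue segments, CCL5 and CCL28, fill 36.0% of the DB2115 bars and 85.9% of the vehicle bars on average.

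Ranked by CPM per kilobase of exon, a scale on which genes can be compared, CCL24 led in DB2115 with a mean of 14.3, followed by CCL5 with 7.42, CXCL8 with 2.94, CXCL16 with 2.53, CCL25 with 1.12 and CCL28 with 1.02. In vehicle CCL5 led with 15.3 CPM per kilobase, followed by CCL28 with 2.79, CXCL8 with 0.859, CXCL16 with 0.721 and CXCL10 with 0.473. CCL24 had 0.0393 CPM per kilobase there. CCL5, CCL28, CXCL8 and CXCL16 were thus among the first 6 in both groups, and CCL24 and CCL25 entered that group in DB2115.

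Among the ligands of CCR2 and CCR3, receptors that guide monocytes and eosinophils, CCL24 and CCL2 rose and the other 5 genes were not tested. CCL24, also called eotaxin-2, attracts eosinophils and basophils through CCR3. It had 9.34 and 8.26 CPM (382 and 342 counts) in the DB2115 libraries, against 0 and 0.0484 CPM (0 and 2 counts) in the vehicle libraries. Nearly all CCL24 counts thus came from the DB2115 libraries. The ratio of DB2115 to vehicle was 336, with an exact 95% counting interval of 92.7 to 2780, and the fitted log2 fold change was 8.23 ± 0.39 (SE, edgeR adjusted p = 1.44e-09). That rise ranked 77th among the 17219 genes tested. Of the 2 vehicle libraries, B held both vehicle counts, and the fitted log2 value was 7.41 without vehicle library A and 11.42 without vehicle library B.

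CCL24 lies at chr7:75811665-75823356 on the minus strand (GRCh38, GENCODE 29). RefSeq gives it start sites far apart, and the 250 bases before each are printed because this gene had the highest DB2115 level per kilobase. Sequences here and below run 5′ to 3′, are from RefSeq (GRCh38.p14), and capitals mark matches on either strand to 4 short motifs. These are a kappaB-like GGNNNTTCC, found in 17.1% of 35116 RefSeq windows of the same length, an AP-1 TGANTCA (6.57%), a PU.1-like AGGAAGT (7.01%) and an interferon response-like GAAANNGAA (6.88%).
CCL24, chr7:75813807-75814056, minus strand: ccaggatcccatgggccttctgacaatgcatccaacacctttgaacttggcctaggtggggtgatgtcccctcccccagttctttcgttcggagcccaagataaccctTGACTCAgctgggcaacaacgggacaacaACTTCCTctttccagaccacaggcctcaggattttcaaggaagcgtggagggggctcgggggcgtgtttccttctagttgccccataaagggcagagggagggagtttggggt
CCL24, chr7:75823373-75823622, minus strand: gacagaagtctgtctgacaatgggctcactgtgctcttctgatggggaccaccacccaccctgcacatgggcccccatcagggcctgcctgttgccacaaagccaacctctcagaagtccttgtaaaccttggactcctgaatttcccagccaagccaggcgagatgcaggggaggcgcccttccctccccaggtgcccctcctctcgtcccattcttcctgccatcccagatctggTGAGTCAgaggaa
The first window holds an AP-1 match that starts 142 bases before the start site and a PU.1-like match at 113 bases, written ACTTCCT because it is on the other strand. The second holds an AP-1 match at 13 bases. A match is a run of letters and not evidence of binding, and in the windows printed no match overlapped another.

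CCL2, the main attractant of monocytes through CCR2, had almost no counts in vehicle and rose. It had 0.440 and 0.459 CPM (18 and 19 counts) in DB2115, against 0 and 0.0242 CPM (0 and 1 counts) in vehicle. Both DB2115 libraries lay above the level of 3 counts, and neither vehicle library did. The ratio was 34.3 with a counting interval of 5.79 to 1393, and the fitted log2 fold change was 4.80 ± 0.91 (edgeR adjusted p = 4.48e-04). It was 4.04 without vehicle library A and 7.14 without vehicle library B. CCL26, a further eotaxin next to CCL24 on chromosome 7, had 0 and 2 counts in DB2115 and none in vehicle. CCL7, CCL8, CCL11 and CCL13, neighbours of CCL2 on chromosome 17, had no count in any library.

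Of the 9 inflammatory CC ligands grouped with CCL3 and CCL5, CCL5 fell, CCL3L3 rose and 3 were silent. CCL5, or RANTES, which attracts T cells and monocytes, was the most abundant chemokine transcript in vehicle. It had 10.9 and 11.5 CPM (446 and 478 counts) in DB2115, against 25.4 and 20.8 CPM (892 and 857 counts) in vehicle. Both DB2115 values lay below both vehicle values, with a fall of 2.04-fold (ratio 0.490, counting interval 0.452 to 0.531). The log2 fold change was -1.04 ± 0.11 (edgeR adjusted p = 2.89e-06). Per kilobase CCL5 was second in DB2115, after CCL24, and first in vehicle.

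CCL3L3 is a near-identical copy of CCL3, the macrophage inflammatory protein 1 alpha, and GENCODE 29 lists the same identifier as CCL3L1. It had 0.342 and 0.314 CPM (14 and 13 counts) in DB2115, against 0 and 0.0242 CPM (0 and 1 counts) in vehicle. The ratio was 25.1 with a counting interval of 4.13 to 1026, and the fitted log2 fold change was 4.35 ± 0.96 (edgeR adjusted p = 0.00150). It was 3.59 without vehicle library A and 6.69 without vehicle library B. CCL3 itself stayed below the count filter with 7 and 8 counts in DB2115, against 0 and 2 counts in vehicle, a ratio of 6.96 with an interval of 1.62 to 62.7. The closest coding transcripts of CCL3 and CCL3L3 were 96.1% identical over their aligned bases, with 30 mismatched positions. The sources used here do not say how reads were shared between such copies, so the split between CCL3 and CCL3L3 is uncertain. Both copies had more counts in each DB2115 library than in either vehicle library.

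CCL4 and CCL4L2, the corresponding pair for macrophage inflammatory protein 1 beta, were 96.5% identical over the aligned bases of their closest coding transcripts, with 248 gap positions beside them, and had few counts. CCL4 had 2 and 0 counts in DB2115 and none in vehicle, and CCL4L2 had 1 and 4 counts in DB2115 and none in vehicle. CCL23, a CCR1 ligand, had 1 and 2 counts in DB2115 and 5 and 3 counts in vehicle, with a ratio of 0.348 (interval 0.0595 to 1.45). CCL14, CCL15 and CCL16, known from liver and gut, had no count, and neither had the CCL15-CCL14 readthrough.

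Among the 10 lymphoid and homeostatic CC ligands CCL22 and CCL25 rose and CCL28 fell. CCL22, the macrophage-derived chemokine, attracts CCR4-positive T helper 2 and regulatory T cells. It had 0.733 and 0.894 CPM (30 and 37 counts) in DB2115 and no count in either vehicle library. CCL22 was therefore at least 20.7-fold higher in DB2115, set against a floor of 3 counts over the vehicle group, 0.0393 CPM (edgeR adjusted p = 3.47e-05). Fitted fold changes of genes without counts in a group depend on the prior count, so bounds are given for them, and floors and counting intervals cover counting error alone.

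CCL25, the thymus-expressed chemokine that draws cells to thymus and small intestine through CCR9, behaved likewise. It had 0.929 and 1.28 CPM (38 and 53 counts) in DB2115 and no count in either vehicle library. This made it at least 28.2-fold higher in DB2115 (edgeR adjusted p = 1.39e-05). By fitted value CCL25 and CCL22 ranked 65th and 88th among the rises of all genes tested.

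CCL28, a chemokine of mucosal epithelia that acts through CCR10 and CCR3, was the second most abundant chemokine gene per kilobase in vehicle. It had 4.96 and 4.23 CPM (203 and 175 counts) in DB2115, against 11.9 and 13.3 CPM (418 and 551 counts) in vehicle. The libraries of the groups were well apart, with a fall of 2.76-fold (ratio 0.362, counting interval 0.321 to 0.408). The log2 fold change was -1.46 ± 0.13 (edgeR adjusted p = 7.14e-07).

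CCL20, which attracts CCR6-positive cells, had no count in DB2115 and 6 and 3 counts in vehicle, at least 3.23-fold lower against the 3-count floor. CCL21, a lymph node homing signal, had no count in DB2115 and 3 and 1 counts in vehicle. CCL19, the other CCR7 ligand, had 1 and 0 counts in DB2115 and 0 and 3 in vehicle. CCL1 had 0 and 2 counts and CCL17, the other CCR4 ligand and chromosomal neighbour of CCL22, had 1 and 0 counts in DB2115, with none in vehicle. CCL18 and CCL27 were silent. All of these lay below the count filter. In a fit without the filter none of those with counts was called, with an edgeR adjusted p of 0.0683 for CCL20, the smallest among them.

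CCL22 lies at chr16:57358772-57366190 on the plus strand. The 250 bases before its RefSeq start are shown as those of a gene counted in DB2115 libraries and not in vehicle libraries.
CCL22, chr16:57358533-57358782, plus strand: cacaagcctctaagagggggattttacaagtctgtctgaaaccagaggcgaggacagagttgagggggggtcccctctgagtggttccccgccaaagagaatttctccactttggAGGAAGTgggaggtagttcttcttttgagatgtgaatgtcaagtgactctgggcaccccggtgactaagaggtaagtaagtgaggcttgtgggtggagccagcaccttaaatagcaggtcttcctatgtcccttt
This window holds a PU.1-like match starting 135 bases before the start and none of the other motifs. No match to any of the 4 motifs was found in the CCL25 window or in the CCL28 windows.

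The CXCR1 and CXCR2 ligands, which recruit neutrophils, include 6 genes clustered on chromosome 4, of which CXCL8 and CXCL2 rose. CXCL8, or interleukin 8, had 5.91 and 7.46 CPM (242 and 309 counts) in DB2115, against 1.82 and 2.08 CPM (64 and 86 counts) in vehicle. Both DB2115 libraries exceeded both vehicle libraries, with a ratio of 3.41 (counting interval 2.84 to 4.11). The log2 fold change was 1.77 ± 0.19 (edgeR adjusted p = 3.67e-06).

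CXCL2, or macrophage inflammatory protein 2 alpha, had 0.929 and 0.531 CPM (38 and 22 counts) in DB2115, against 0.142 and 0.387 CPM (5 and 16 counts) in vehicle. The groups did not overlap, but DB2115 library B lay close to vehicle library B. The ratio was 2.65 (interval 1.59 to 4.59), and the log2 fold change was 1.42 ± 0.54 (edgeR adjusted p = 0.0355). This call was lost without vehicle library A (0.90, adjusted p = 0.223), without vehicle library B (2.31, adjusted p = 0.0536), without DB2115 library A (0.96, adjusted p = 0.288) and with DESeq2 (adjusted p = 0.0927). Over the alternatives its adjusted p ran from 0.0123 to 0.288, leaving aside a fit of all 6 columns, which counts the summed columns as libraries.

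CXCL6, a granulocyte attractant, had 1 and 14 counts in DB2115 and none in vehicle, so that library B held nearly all of them, and it was at least 4.64-fold higher against the floor. Without a count filter CXCL6 was the only untested gene of the 16 with counts that passed the threshold (edgeR adjusted p = 0.0115), where 18.7% of 31249 genes were called higher and 17.8% lower. CXCL1 had 2 and 0 counts in DB2115 and none in vehicle. CXCL3 and CXCL5 had no count in any library.

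The promoters of this cluster are shown for CXCL8 and CXCL2, which rose, and for CXCL3, a relative of CXCL2 without counts. CXCL8 lies at chr4:73740506-73743716 on the plus strand, CXCL2 at chr4:74097035-74099293 and CXCL3 at chr4:74036589-74038807, both on the minus strand.
CXCL8, chr4:73740319-73740568, plus strand: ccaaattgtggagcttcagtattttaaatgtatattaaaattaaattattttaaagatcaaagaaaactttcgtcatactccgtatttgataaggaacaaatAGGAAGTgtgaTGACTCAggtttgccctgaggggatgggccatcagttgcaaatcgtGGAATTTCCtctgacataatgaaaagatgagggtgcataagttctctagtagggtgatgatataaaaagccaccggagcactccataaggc
CXCL2, chr4:74099196-74099445, minus strand: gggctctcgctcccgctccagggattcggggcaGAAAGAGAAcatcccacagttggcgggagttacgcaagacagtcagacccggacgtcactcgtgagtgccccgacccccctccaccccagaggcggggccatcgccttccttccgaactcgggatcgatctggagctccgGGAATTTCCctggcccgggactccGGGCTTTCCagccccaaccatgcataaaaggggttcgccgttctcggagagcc
CXCL3, chr4:74038690-74038939, minus strand: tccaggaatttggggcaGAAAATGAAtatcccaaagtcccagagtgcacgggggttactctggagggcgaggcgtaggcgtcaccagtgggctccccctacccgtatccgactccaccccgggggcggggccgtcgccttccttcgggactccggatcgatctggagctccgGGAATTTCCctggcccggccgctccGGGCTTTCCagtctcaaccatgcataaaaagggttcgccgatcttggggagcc
CXCL8 carries a PU.1-like match 148 bases, an AP-1 match 137 bases and a kappaB-like match 91 bases before the start. CXCL2 has kappaB-like matches at 77 and 53 bases and an interferon response-like match at 217 bases. CXCL3 has kappaB-like matches at 78 and 53 bases and an interferon response-like match at 233 bases. Over aligned bases the CXCL2 and CXCL3 windows were 83.3% identical. All 6 genes of the cluster held at least 1 kappaB-like match in their window, and among them 2 had no count and 2 were called higher. The CXCL1 and CXCL2 windows were 85.1% identical over aligned bases, so the matches of such similar windows are not independent. Over all 31 chemokine genes with a window in RefSeq, 13 held such a match, against 17.1% of all RefSeq windows. That share is per window, and some of the 31 genes have more than 1 window.

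The 3 CXCR3 ligands, CXCL9, CXCL10 and CXCL11, sit side by side on chromosome 4 and attract activated T cells. CXCL10 fell and CXCL11 rose. CXCL10 had no count in either DB2115 library, against 0.484 and 0.630 CPM (17 and 26 counts) in vehicle. It was at least 15.4-fold lower in DB2115 against the 3-count floor of 0.0364 CPM (edgeR adjusted p = 1.17e-04), and its fitted change ranked 7th among the falls of all genes tested.

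CXCL11 had 0.635 and 1.21 CPM (26 and 50 counts) in DB2115, against 0.399 and 0.387 CPM (14 and 16 counts) in vehicle. DB2115 library B was well above the other 3 libraries. The ratio was 2.35 (interval 1.52 to 3.72) and the log2 fold change was 1.22 ± 0.46 (edgeR adjusted p = 0.0318). This call was lost without vehicle library A (adjusted p = 0.0829), without vehicle library B (adjusted p = 0.178), without DB2115 library B (0.68, adjusted p = 0.408) and with DESeq2 (adjusted p = 0.0900). Over the alternatives, again without the 6-column fit, its adjusted p ran from 0.0111 to 0.408. CXCL9 had 2 and 0 counts in DB2115 and 1 and 0 counts in vehicle.

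CXCL10 (chr4:76021117-76023497, minus strand) and CXCL11 (chr4:76033682-76041415, minus strand) both lie within ART3, which runs on the opposite strand and shares no exon bases with them. ART3, an ADP-ribosyltransferase-like gene, had 15 and 15 counts in DB2115, against 216 and 201 counts in vehicle (log2 fold change -3.90, edgeR adjusted p = 5.20e-08). Its part in the values of CXCL10 and CXCL11 was not tested, and the sources used here do not give the strand setting of the counting. The windows of CXCL10 and CXCL11 are printed because these neighbours moved in opposite directions.
CXCL10, chr4:76023498-76023747, minus strand: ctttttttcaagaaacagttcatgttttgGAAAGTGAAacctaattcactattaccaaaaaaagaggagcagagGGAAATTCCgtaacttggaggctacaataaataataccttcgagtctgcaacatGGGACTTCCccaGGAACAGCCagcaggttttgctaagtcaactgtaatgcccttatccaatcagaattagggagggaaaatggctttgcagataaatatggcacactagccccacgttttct
CXCL11, chr4:76036071-76036320, minus strand: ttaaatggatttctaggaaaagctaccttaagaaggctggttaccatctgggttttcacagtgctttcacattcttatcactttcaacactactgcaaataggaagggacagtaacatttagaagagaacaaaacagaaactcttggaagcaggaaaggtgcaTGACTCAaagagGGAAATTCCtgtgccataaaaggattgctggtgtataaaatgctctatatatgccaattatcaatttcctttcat
CXCL10 has kappaB-like matches at 176, 122 and 110 bases before the start and an interferon response-like match at 221 bases. CXCL11 has a kappaB-like match at 75 bases and an AP-1 match at 87 bases, with no interferon response-like match in these letters. Over aligned bases the windows were 62.9% identical.

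**Figure D3:**
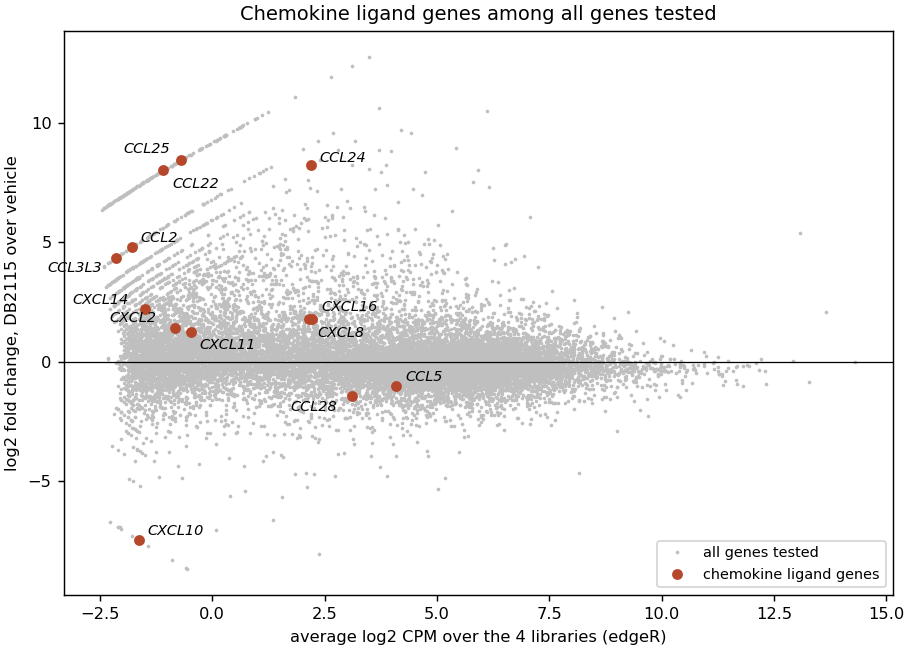
Log2 fold change, DB2115 over vehicle, against average log2 CPM over the 4 libraries for all 17219 genes tested, with the chemokine genes in red. CCL25, CCL22 and CXCL10 lie on the outer lines formed by genes without counts in a group, while CXCL8, CXCL16, CCL5 and CCL28 lie within the cloud at higher averages.

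The remaining CXC ligands, CXCL12, CXCL13, CXCL14, CXCL16 and CXCL17, held 2 risers. CXCL16 is made as a membrane-bound protein that binds CXCR6 and oxidised lipoprotein. It had 7.06 and 7.08 CPM (289 and 293 counts) in DB2115, against 1.68 and 2.35 CPM (59 and 97 counts) in vehicle. The DB2115 libraries lay close together and far above vehicle, with a ratio of 3.46 (interval 2.90 to 4.16). The log2 fold change was 1.80 ± 0.19 (edgeR adjusted p = 2.70e-06). Exons of CXCL16 (chr17:4733526-4739922, minus strand) overlap those of MED11 on the opposite strand, which moved the other way with 225 and 182 counts in DB2115, against 288 and 297 counts in vehicle (log2 fold change -0.64, edgeR adjusted p = 0.00302).

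CXCL14, a chemokine of epithelia, had 0.391 and 0.580 CPM (16 and 24 counts) in DB2115, against 0.0569 and 0.145 CPM (2 and 6 counts) in vehicle. Both DB2115 libraries were above both vehicle libraries, with a ratio of 4.64 (interval 2.14 to 11.5). The log2 fold change was 2.19 ± 0.63 (edgeR adjusted p = 0.00835), and the call was lost without vehicle library A (1.71, adjusted p = 0.0938) and without DB2115 library B (1.88, adjusted p = 0.0956), while the value was 3.0 without vehicle library B. Without the 6-column fit its adjusted p ran from 0.00456 to 0.0956 over the alternatives. Its exons overlap those of SLC25A48 on the opposite strand, which had 9 and 21 counts in DB2115 and none in vehicle, and the part of SLC25A48 in the CXCL14 value was not tested. CXCL12, the stromal ligand of CXCR4, had 1 and 8 counts in DB2115 and 4 and 3 counts in vehicle, a ratio of 1.19 (interval 0.396 to 3.77). CXCL13, which guides B cells to follicles, had 1 and 0 counts in DB2115 and 1 and 4 counts in vehicle.

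The C and CX3C families had almost no counts. XCL1 had 1 count in vehicle library A, and XCL2 and CX3CL1 had none. In all, 15 of the 44 chemokine genes had no count in any library, which allows a level of up to 0.0189 CPM over the 4 libraries, and 16 had counts too few to test, the highest sum being 17. Among the 19881 protein-coding genes, 16.9% had no count. By position, 18 of the chemokine genes lie on chromosome 17, of which 3 rose, 1 fell and 9 were silent, and 10 lie on chromosome 4, of which 3 rose, 1 fell and 2 were silent.

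**Figure D4:**
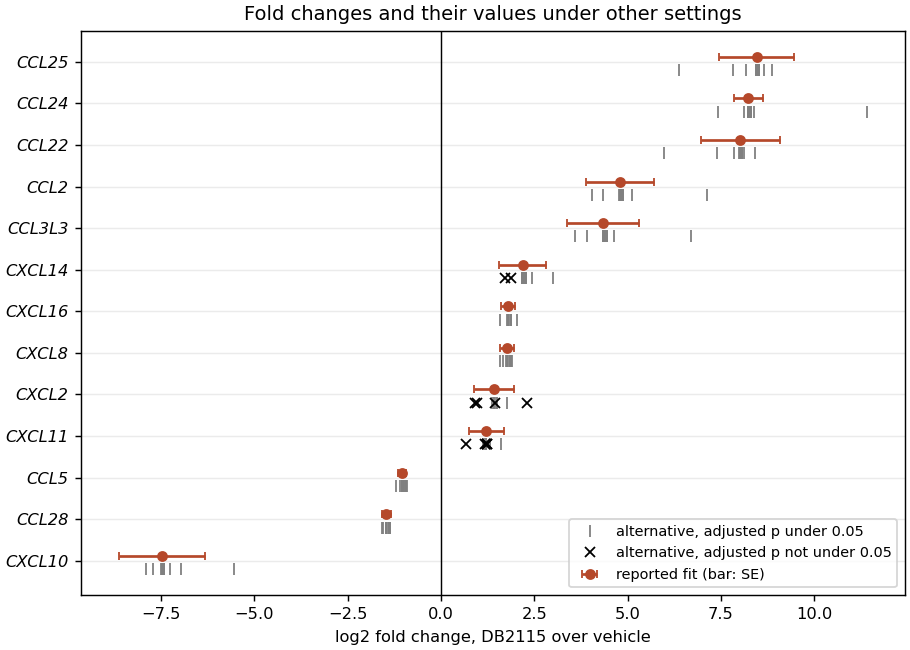
Log2 fold change, DB2115 over vehicle, of the 13 tested chemokine genes with standard errors (red), and the values under other settings (grey ticks, or black crosses where the adjusted p was not under 0.05). Crosses appear for CXCL14, CXCL2 and CXCL11, and no value crosses the line at 0.

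As the plot of fold changes under other settings shows, CCL5, CCL28, CXCL8, CXCL16, CCL24, CCL22, CCL25, CXCL10, CCL2 and CCL3L3 kept their call wherever they were tested. Standard errors were derived from the F statistic of each gene, and they are too small for large changes with few counts. CXCL2, CXCL11 and CXCL14 are the called genes whose significance depends on single libraries.

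AU-rich elements contain the letters ATTTA, and the 3′ UTRs of the longest coding transcripts were searched for it. CXCL2 had 10 copies and CXCL8 had 9, where 12.3% and 14.3% of 19093 genes had as many. CXCL5 had 11, CXCL3 and CCL28 had 7, and CCL3L3 had 4. CXCL10, CXCL11, CXCL14, CXCL16 and CCL2 had 1 copy each, and CCL5, CCL24, CCL22 and CCL25 had none, against a median of 2 over all genes. Risers and fallers thus both included genes with many copies and genes with few, and longer UTRs hold more copies by length alone.

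Genes around chemokine signalling were counted in lists written from general knowledge. The share of tested genes called was 72.7% for receptors, 78.6% for NF-kB, 92.3% for interferon signalling, 84.6% for other cytokines, 72.7% for decay regulators and 77.8% for proteases, against 64.1% of all genes tested. Of 23 chemokine receptors 11 were tested, 7 rose and 1 fell, with a median log2 fold change of 1.67. CXCR3, the receptor of CXCL10 and CXCL11, was at 12.3 ± 0.805 CPM in DB2115 and 0.166 ± 0.0736 CPM in vehicle (log2 fold change 6.15, edgeR adjusted p = 3.12e-10). CX3CR1, the fractalkine receptor of monocytes, was at 45.5 ± 3.98 CPM in DB2115 and 14.2 ± 1.12 CPM in vehicle (1.67, adjusted p = 5.62e-09). CCR2, the CCL2 receptor, was at 36.0 ± 0.983 CPM in DB2115 and 13.0 ± 0.396 CPM in vehicle (1.47, adjusted p = 7.43e-09). CCR4, CCR8, CXCR5 and ACKR1 had no count.

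Receptors of other ligands described above are given after their values were seen. CCR10, bound by CCL28, was at 9.13 ± 0.779 CPM in DB2115 and 2.34 ± 0.529 CPM in vehicle (log2 fold change 1.95, edgeR adjusted p = 6.48e-07). CCR3, bound by CCL24, was at 0.669 ± 0.126 CPM in DB2115 and 0.132 ± 0.0150 CPM in vehicle (2.32, adjusted p = 0.00201). CXCR4, bound by CXCL12, was the receptor that fell, with 16.1 ± 2.12 CPM in DB2115 and 46.4 ± 4.46 CPM in vehicle (-1.53, adjusted p = 3.15e-08). CXCR2, bound by CXCL8, was at 4.07 ± 0.121 CPM in DB2115 and 5.07 ± 0.162 CPM in vehicle and did not pass the test (-0.32, adjusted p = 0.102). CXCR6, bound by CXCL16, had 1 and 0 counts in DB2115 and 3 and 6 counts in vehicle, and CCR9, bound by CCL25, had 0 and 5 counts in DB2115 and none in vehicle.

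All 14 NF-kB subunits and inhibitors were tested, and 6 rose and 5 fell, with a median log2 fold change of 0.16. BCL3, a nuclear IkB protein, was at 25.4 ± 0.0492 CPM in DB2115 and 2.42 ± 0.00140 CPM in vehicle (log2 fold change 3.39, edgeR adjusted p = 7.20e-11). NFKBIB, a cytoplasmic inhibitor, fell by 1.50 on the log2 scale (adjusted p = 2.80e-09), and NFKB1, the p50 precursor, was at 45.2 ± 2.69 CPM in DB2115 and 82.5 ± 1.12 CPM in vehicle (-0.87, adjusted p = 1.56e-07). The list of 13 interferon signalling genes had 11 that rose and 1 that fell, with a median of 0.52. IFNGR1, a chain of the interferon gamma receptor, was at 138 ± 9.62 CPM in DB2115 and 54.9 ± 3.15 CPM in vehicle (1.33, adjusted p = 4.79e-09). STAT2, a transducer of type I interferon signals, changed by 1.18 (adjusted p = 2.11e-08), and JAK1, a cytoplasmic kinase bound to cytokine receptors, by 1.03 (adjusted p = 2.81e-08).

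Most of the other cytokine genes that could be tested rose. Of 22 listed 13 were tested, and 11 rose and none fell at the edgeR threshold, with a median log2 fold change of 2.12. IL16, a CD4 ligand, was at 39.4 ± 1.90 CPM in DB2115 and 5.19 ± 0.499 CPM in vehicle (2.92, edgeR adjusted p = 9.40e-11). TGFB1, which encodes transforming growth factor beta 1, was at 398 ± 9.96 CPM in DB2115 and 131 ± 2.46 CPM in vehicle (1.61, adjusted p = 1.54e-10). LTB, or lymphotoxin beta, was at 38.4 ± 7.75 CPM in DB2115 and 1.78 ± 0.388 CPM in vehicle (4.45, adjusted p = 2.70e-10). IL12A and IL18 did not pass the test, with IL12A at 1.17 ± 0.231 CPM in DB2115 and 1.87 ± 0.213 CPM in vehicle (-0.68, adjusted p = 0.0594) and IL18 at 8.88 ± 1.09 CPM in DB2115 and 10.8 ± 0.737 CPM in vehicle (-0.29, adjusted p = 0.0606). CSF2, IFNB1 and IFNG had no count.

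Of 11 regulators of messenger RNA decay, most of them tied to AU-rich elements, 3 rose and 5 fell, with a median of 0.03. ZC3H12A, the endonuclease Regnase-1, which cuts at stem-loops and not at AU-rich elements, was at 32.9 ± 3.24 CPM in DB2115 and 5.54 ± 1.46 CPM in vehicle (log2 fold change 2.58, edgeR adjusted p = 5.91e-09). HNRNPD, or AUF1, fell by 0.71 (adjusted p = 4.70e-07), and ZFP36, or tristetraprolin, was at 51.2 ± 4.11 CPM in DB2115 and 80.7 ± 2.40 CPM in vehicle (-0.66, adjusted p = 3.90e-06). Of 10 proteases that can cleave chemokines 9 were tested, and 4 rose and 3 fell, with a median of 0.00. MMP9, or gelatinase B, was at 85.3 ± 6.28 CPM in DB2115 and 0.172 ± 0.0382 CPM in vehicle (8.94, adjusted p = 5.35e-13). MMP2, or gelatinase A, was at 148 ± 8.57 CPM in DB2115 and 14.7 ± 0.359 CPM in vehicle (3.34, adjusted p = 4.16e-12). PRTN3, a neutrophil granule protease, was at 283 ± 25.6 CPM in DB2115 and 1376 ± 22.5 CPM in vehicle (-2.28, adjusted p = 6.26e-11). ADAM10, which sheds CXCL16 and CX3CL1 from the membrane, was at 141 CPM in both groups and was not called (adjusted p = 0.981).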

How the data were processed

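RNA was sequenced from MOLM-13 cells in DB2115 or vehicle, with 1.0 µg of total RNA per library per the labels' protocols. The deposited table holds raw counts per gene, made by the authors; FastQC, STAR, DESeq2 and build hg38 appear in the submitters' processing notes. The sources used here do not give the counting tool, annotation or strand setting. Of 58381 Ensembl identifiers 57799 had a current symbol and 462 took one from GENCODE 29. In each group column V equalled A plus B in 86.3% (DB2115) and 85.6% (vehicle) of genes with counts and was left out. Columns A and B differed beyond sampling noise (median chi-square 1.91 in DB2115 and 1.48 in vehicle, 0.455 from sampling alone). The letters were not tied to replicate numbers, and same-letter columns did not deviate together (correlation 0.0337).

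Counts were scaled by TMM, filtered with filterByExpr (minimum count 10, minimum total 15) and tested with edgeR 4.0.16 in R 4.3.3 (glmQLFit, glmQLFTest, treatment as the only term, Benjamini-Hochberg adjusted p under 0.05 over 17219 genes). The biological coefficient of variation was 6.33%. Total counts of 36547900 to 42446253 limit precision for genes below about 10 counts. Fits were tested on simulated data. Every chemokine gene past the filter was named, others where they had a count, and per list up to 3 called genes with the smallest adjusted p. Some genes of the lists are not reported here. Levels are CPM as mean ± SD, intervals are exact 95% Poisson ratios, and floors are 3 counts. Promoters came from RefSeq for 31 genes, and those of CCL2, CCL5, CCL4 and CXCL16 were not used here. Transcript identity and ATTTA counts came from GENCODE 29. Alternatives included DESeq2 1.42.0 and limma 3.58.1. The chemokine genes, lists and markers were chosen with earlier results of these data known.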

Additional observations from a re-analysis of the deposited data

How the results depend on the processing

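Over 15 alternatives the 13 tested chemokine genes gave 177 fold changes, of which 167 kept their call, 10 lost it and 0 changed direction. The calls lost were those of CXCL2, CXCL11 and CXCL14 given above. A filter of 1 CPM in 2 libraries left 3 chemokine genes called higher and 2 lower, and 1 CPM in 3 libraries left 2 higher and 2 lower, because fewer genes were tested; CCL3L3 was also untested without DB2115 library A. Without a filter 11 were higher, and with DESeq2 8 were. Leaving out each library in turn left 7 to 8 higher and 3 lower, with 8838 to 10709 genes called in all against 11030. A fit with the column letter as a replicate block called 11424 genes, with 10 chemokine genes higher and 3 lower. All 6 columns taken as libraries called 13838. Total-count and upper-quartile scaling moved the median of all genes to 0.12. Few counts limit the tested genes other than CCL24, CCL5, CCL28, CXCL8 and CXCL16, and all untested genes.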
